A study of Mus musculus with 8 samples.

Results

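Genes of the insulin and insulin-like growth factor (IGF) axis were described in the pancreas of lean and obese mice. They were 10 genes of the 15047 in the deposited values, chosen by symbol, and all 10 were measured: the ligand Igf1, the receptors Igf1r and Insr, the adaptors Irs1 and Irs2, and the binding proteins Igfbp2, Igfbp3, Igfbp4, Igfbp5 and Igfbp7. RNA-Seq was available for 8 male mice. The LFD group (3 mice) and the HFD group (3 mice) were C57BL/6 WT mice given their diet for 10 weeks from an age of 4 weeks, with 60% of the HFD calories coming from fat. The third group (2 mice) held C57BL/6J ob/ob mice, which lack functional leptin in every tissue, on a standard diet from the same age, so genotype and chow cannot be told apart when they are compared with LFD. The labels call the samples pancreas. The study states that its RNA-Seq compared lean, HFD and ob/ob mice bearing transplanted tumor organoids (mT) from genetically engineered mice. It gives the same numbers of mice per group. The samples are therefore taken as pancreas with a graft, and the shares of graft and host RNA were not tested. Bulk tissue does not separate fewer cells of a type from less RNA per cell.

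Insulin acts through the receptor encoded by Insr, and IGF-1 through the closely related receptor encoded by Igf1r. Both receptors phosphorylate the adaptors IRS1 and IRS2, which recruit PI3K and lead to activation of AKT and to export of FOXO factors from the nucleus. IGF binding proteins carry IGFs in blood and tissue fluid and set how much ligand reaches the receptor, and IGFBP7 is a more distant relative with weak affinity for IGFs. In the pancreas, islets secrete insulin directly into the blood that reaches the surrounding acinar tissue, and fibroblasts are a common source of IGF-1 and of binding proteins.

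Values are rlog values, which are read counts on a log2 scale, corrected for library size and shrunk for genes with few reads. A difference of 1 is therefore about a doubling for a well expressed gene. In LFD mice the mean level per kilobase of the longest coding transcript (rlog value minus log2 of the length in kilobases) was highest for Igfbp7, at 9.59, then Igfbp3 at 8.39 and Igfbp4 at 7.59. Igf1 followed at 7.48, Insr at 6.98 and Igf1r at 5.66. The lowest levels per kilobase were those of Igfbp5 at 5.08, Igfbp2 at 4.95, Irs2 at 4.33 and Irs1 at 3.99. Neighbours in this order that did not differ beyond the SD of their mice were Igfbp4 and Igf1, and Igfbp5 and Igfbp2. The order of Irs2 and Irs1 is not firm either, as Irs2 minus Irs1 within a mouse had an SD of 0.56 in LFD. The order depended on the transcript taken for Igf1 and Igfbp4, which have 8 and 3 coding transcripts. With the median transcript length they stood at 9.85 and 9.96 per kilobase and passed Igfbp7 at 9.64.

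Acinar markers and stromal markers varied between the mice, and their levels stand here because several results move with them. The mean rlog value of 10 acinar markers was 19.23 to 19.62 in LFD, 15.42 to 19.46 in HFD and 15.73 to 18.77 in ob/ob. The acinar-poor mice were replicates 2 and 3 of HFD and replicate 2 of ob/ob, whereas HFD replicate 1 lay within the LFD range. The mean of 8 fibroblast markers was 9.65 to 10.03 in LFD, 10.53 to 11.34 in HFD and 10.93 to 11.76 in ob/ob, and that of 7 macrophage markers was 8.80 ± 0.24 (SD), 9.62 ± 0.41 and 10.38 ± 0.41 in the same order. The part of these cell types in the results was not tested beyond the covariate fits given below. All markers of the islet (8), duct (7), endothelial (7), smooth muscle and pericyte (6), adipocyte (6) and mesothelial (4) lists were measured, as were 3 of 5 hepatocyte markers, and no marker was at 0, the lowest mean being 3.99 for Cnn1. The duct list had means of 9.23 ± 0.14 (SD) for LFD, 9.96 ± 0.41 for HFD and 9.30 ± 0.46 for ob/ob. It was highest in HFD replicates 2 and 3 (10.25 and 10.14). At an unadjusted p-value under 0.05 with limma, 4 of its 7 genes were higher in HFD than in LFD. So were 5 of 8 fibroblast and 5 of 7 macrophage genes, beside 11.5% of all genes. In the duct list 2 of 7 genes went the other way, Muc1 by -0.86 and Sox9 by -0.01. Dcn of the fibroblast list (-0.29) and Cd163 of the macrophage list (-0.11) did so too. In the hepatocyte list the measured genes went opposite ways in HFD replicate 3, where Apoa1 was at 13.46, beside 3.60 to 6.51 in the other mice, and Alb (3.62) and Ttr (6.55) were at their lowest. The adipocyte list had means of 7.50 ± 0.29 (SD) for LFD, 7.49 ± 0.14 for HFD and 7.38 ± 0.99 for ob/ob. Against LFD, 3 of its 6 genes were higher and 3 lower in each obese group. Among the lower ones, Cfd differed by -1.68 in HFD and -2.13 in ob/ob, without overlap with LFD. Among the higher ones, Lep was at 7.27, 7.26 and 7.31 in HFD, at 8.12 and 6.78 in ob/ob and between 5.86 and 6.28 in LFD. The Lep mRNA does not check the genotype because the ob allele carries a stop codon in a transcript that is still made. Pairs of mice correlated with Pearson r between 0.884 and 0.982 across genes, which are not independent replicates.

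With limma, 0 of the 10 genes reached an adjusted p-value under 0.05, and 0 of 15047 genes did so (0%) in the comparisons of HFD with LFD, ob/ob with LFD, ob/ob with HFD, and obese with LFD. Obese denotes the mean of the HFD and ob/ob group means. Before adjustment, 3 of the 10 had a p-value under 0.05 and were higher in HFD than in LFD, against 11.5% of all genes, and 0 were lower, against 8.35%. Between ob/ob and LFD, 2 were higher (11.6% of all genes) and 1 was lower (7.18%). Between ob/ob and HFD, 0 were higher (2.28% of all genes) and 0 lower (1.63%). Between obese and LFD, 3 were higher (14.5% of all genes) and 1 was lower (10.9%). For 2 of the 10 genes the lowest obese mouse exceeded the highest LFD mouse, which held for 9.40% of all genes, and for 0 the reverse was true, which held for 9.05%. The median difference of the 10 genes between obese and LFD was 0.05, beside 0.04 over all genes, with 5 genes above 0 and 5 below.

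**Figure D1:**
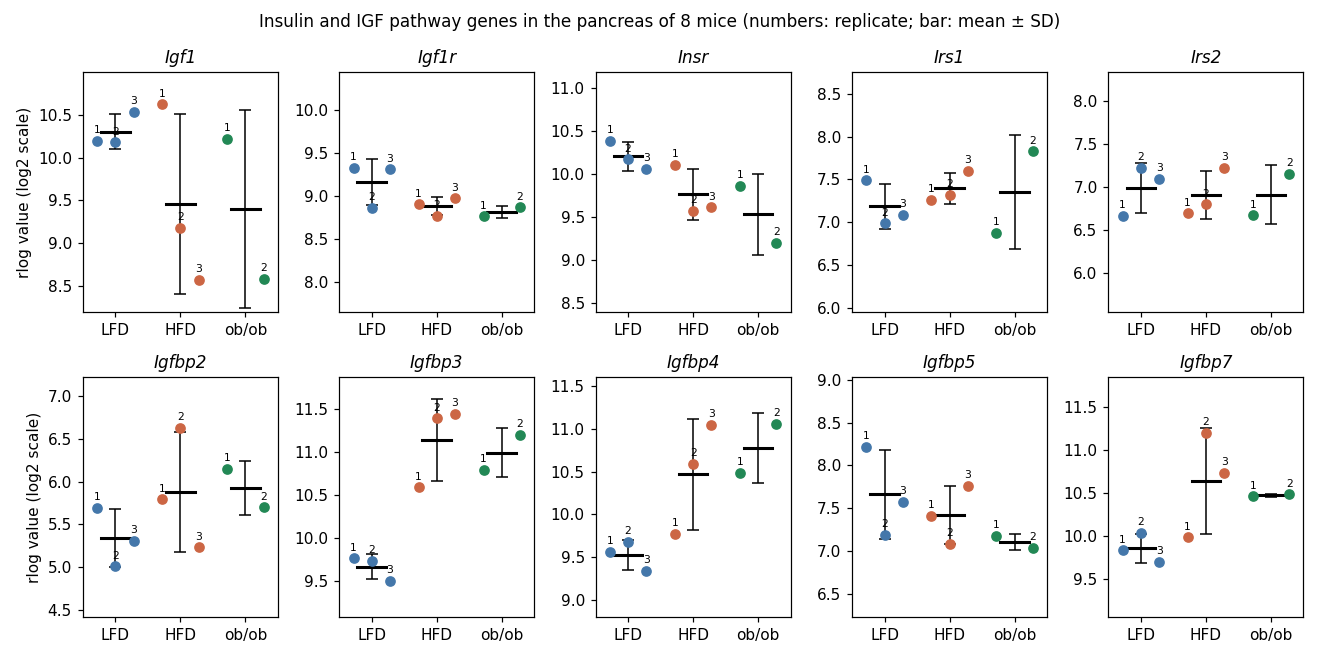
The rlog value (log2 scale) of each of the 10 genes in every mouse, with the replicate number beside each point and the group mean ± SD as bars. Every panel spans 2.8 units. Igfbp3 and Igfbp4 are higher in all 5 obese mice than in all 3 LFD mice, while Igf1 splits the obese mice.

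Igfbp3 encodes the main carrier of IGFs in blood, which also has effects on cells of its own. Igfbp3 (chromosome 11 of GRCm38, 7206086 to 7213923, minus strand) was at 9.76, 9.74 and 9.50 in the LFD mice, in the order of their replicate numbers, which is kept below. The HFD mice had rlog values of 10.59, 11.39 and 11.45, and the ob/ob mice of 10.79 and 11.20. The groups of lean and obese mice did not overlap, and the lowest obese value was that of HFD replicate 1, 0.92 above the LFD mean. In that mouse the acinar markers were at the LFD level, and the fibroblast markers (mean 10.53) were above those of all LFD mice. The difference was 1.48 (standard error 0.25) for HFD against LFD (adjusted p = 0.16 with limma), and ob/ob exceeded LFD by 1.33 (standard error 0.28, adjusted p = 0.152). For obese against LFD it was 1.40 (95% interval 0.88 to 1.92), with an adjusted p-value of 0.0810. With the acinar markers as a covariate the difference was 1.01 (adjusted p = 0.102). With the fibroblast markers as a covariate it was 0.38 (adjusted p = 0.610), in a fit where the covariate itself does not overlap between lean and obese mice. Without HFD replicate 1 it was 1.54, with an adjusted p-value under 0.05, and without ob/ob replicate 1 it was 1.51. How many of all genes passed without HFD replicate 1 was not counted, here and for the genes below.

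Igfbp4 encodes a binding protein that mostly restrains IGFs until a protease cleaves it. Igfbp4 (chromosome 11, 99041244 to 99054392, plus strand) was at 9.57, 9.68 and 9.34 in the LFD mice, at 9.77, 10.59 and 11.04 in the HFD mice and at 10.48 and 11.06 in the ob/ob mice. HFD replicate 1 was just above the highest LFD mouse, and the other 4 obese mice were higher still. The difference was 0.94 (standard error 0.32) for HFD against LFD, 1.24 (standard error 0.35) for ob/ob against LFD and 1.09 (95% interval 0.44 to 1.74) for obese against LFD, with adjusted p-values of 0.201, 0.200 and 0.108 with limma. With the acinar covariate it was 0.52 (adjusted p = 0.336), and with the fibroblast covariate its sign turned, at -0.30 (adjusted p = 0.729). Without HFD replicate 1 it was 1.26, with an adjusted p-value of 0.0124.

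Igfbp7, also known as a protein of the vessel wall and of activated stroma, had the third difference of this kind. Igfbp7 (chromosome 5, 77349240 to 77408041, minus strand) was at 9.83, 10.04 and 9.70 in the LFD mice, at 9.98, 11.20 and 10.73 in the HFD mice and at 10.46 and 10.48 in the ob/ob mice. HFD replicate 1 overlapped with LFD, and HFD replicate 2 was the highest mouse. HFD exceeded LFD by 0.78 (adjusted p = 0.213) and ob/ob exceeded LFD by 0.62 (adjusted p = 0.314). For obese against LFD it was 0.70 (95% interval 0.12 to 1.28, adjusted p = 0.151), 0.44 with the acinar covariate and -0.04 with the fibroblast covariate. Without HFD replicate 1 it was 0.86, with an adjusted p-value of 0.0153. The endothelial markers, which IGFBP7 accompanies in many tissues, were at 6.86 to 7.48 in LFD, 7.38 to 7.89 in HFD and 7.04 to 7.61 in ob/ob.

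As these 3 genes had the highest differences among the 10, the 250 bases before their transcription start are shown, from RefSeq on GRCm38.p6 and in the direction of transcription. Capitals mark a GC box (GGGCGG), which Sp1 family factors bind, or a TATA box (TATAAA), on either strand.
Igfbp3, chr11:7213924-7214173, strand minus: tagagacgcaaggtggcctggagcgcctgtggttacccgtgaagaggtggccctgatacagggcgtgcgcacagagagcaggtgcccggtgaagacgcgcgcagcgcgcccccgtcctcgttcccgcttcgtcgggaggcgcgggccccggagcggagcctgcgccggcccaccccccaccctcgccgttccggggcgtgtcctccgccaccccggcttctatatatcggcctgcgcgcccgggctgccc
Igfbp4, chr11:99040994-99041243, strand +: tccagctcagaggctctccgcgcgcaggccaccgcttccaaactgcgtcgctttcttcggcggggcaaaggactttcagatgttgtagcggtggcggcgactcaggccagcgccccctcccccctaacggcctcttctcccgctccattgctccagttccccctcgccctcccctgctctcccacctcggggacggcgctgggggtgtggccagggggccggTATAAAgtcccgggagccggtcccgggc
Igfbp7, chr5:77408046-77408295, strand minus: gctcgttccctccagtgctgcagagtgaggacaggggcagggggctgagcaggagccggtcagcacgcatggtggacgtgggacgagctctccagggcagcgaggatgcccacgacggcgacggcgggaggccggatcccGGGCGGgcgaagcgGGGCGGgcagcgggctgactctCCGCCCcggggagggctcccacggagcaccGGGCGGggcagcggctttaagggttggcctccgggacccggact
The GC content of these windows was 73.2%, 69.2% and 74%. Igfbp7 held 4 GC boxes, Igfbp4 held 1 TATA box whose first base lay at position -28 from the start, and Igfbp3 held neither in these letters. Of 32851 windows of the same length in the RefSeq table, 32.7% held a GC box and 12.4% a TATA box. The FOXO motif GTAAACA was in 3.17% of those windows and in none of the windows of 9 of the 10 genes. Insr was not in the table. Also searched were the E-box CACGTG, found before Irs1, Irs2 and Igfbp2 and in 6.02% of windows, and the AP-1 motif TGACTCA, found before a second start of Igfbp2 and in 4.46%. No searched motif overlapped another among these matches. A match of letters is a description of the window and not of binding.

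Igfbp2, a binding protein whose blood level falls in obesity and rises with leptin, and Igfbp5, which binds matrix, were the binding protein genes with an unadjusted p-value above 0.05 in each comparison. Igfbp2 (chromosome 1, 72824503 to 72852474, plus strand) was at 5.69, 5.01 and 5.31 in the LFD mice, at 5.79, 6.62 and 5.23 in the HFD mice and at 6.15 and 5.70 in the ob/ob mice. HFD replicate 2 was the highest mouse, HFD replicate 3 lay within the LFD range, and the lower ob/ob mouse was next to the highest LFD mouse. The difference between obese and LFD was 0.56 (95% interval -0.22 to 1.35, adjusted p = 0.315 with limma), 0.84 with the acinar covariate and 1.00 with the fibroblast covariate (adjusted p = 0.495 and 0.609). Igfbp5 lies next to Igfbp2 on the opposite strand (chromosome 1, 72857932 to 72874884) and was at 8.22, 7.19 and 7.58 in the LFD mice, at 7.41, 7.08 and 7.76 in the HFD mice and at 7.18 and 7.04 in the ob/ob mice. Its spread was widest in LFD (SD 0.52), where replicate 1 had the highest value of all mice. The difference of Igfbp5 between obese and LFD was -0.40 (standard error 0.26, adjusted p = 0.355), and it was -0.12 without LFD replicate 1 and -0.63 without LFD replicate 2. Igfbp2 and Igfbp5 lay at the 28.4th and 55.0th percentile of mean rlog values, and Igfbp3 and Igfbp4 at the 96.0th and 94.4th.

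Igf1 encodes IGF-1, which the liver releases under growth hormone and many tissues make locally. Igf1 (chromosome 10, 87858265 to 87937042, plus strand) was at 10.19, 10.18 and 10.53 in the LFD mice, at 10.62, 9.18 and 8.58 in the HFD mice and at 10.22 and 8.58 in the ob/ob mice. HFD replicate 1 had the highest value of all mice and ob/ob replicate 1 lay within the LFD range, while the 3 acinar-poor mice stood at -1.12, -1.72 and -1.72 from the LFD mean. The SD was 0.20 in the LFD group, beside 1.05 and 1.15 in the HFD and ob/ob groups. The difference was -0.84 (standard error 0.55, adjusted p = 0.397 with limma) between HFD and LFD, -0.90 (standard error 0.61, adjusted p = 0.415) between ob/ob and LFD and -0.87 (95% interval -1.99 to 0.25, adjusted p = 0.284) between obese and LFD. With the acinar markers as a covariate the sign turned, at 0.21 (adjusted p = 0.700), and with the fibroblast markers it was 1.84 (adjusted p = 0.164). Single mice moved these values: HFD against LFD was -1.42 without HFD replicate 1 (adjusted p = 0.0513) and -0.40 without HFD replicate 3, and obese against LFD was -1.28 without ob/ob replicate 1 and -0.46 without ob/ob replicate 2.

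**Figure D2:**
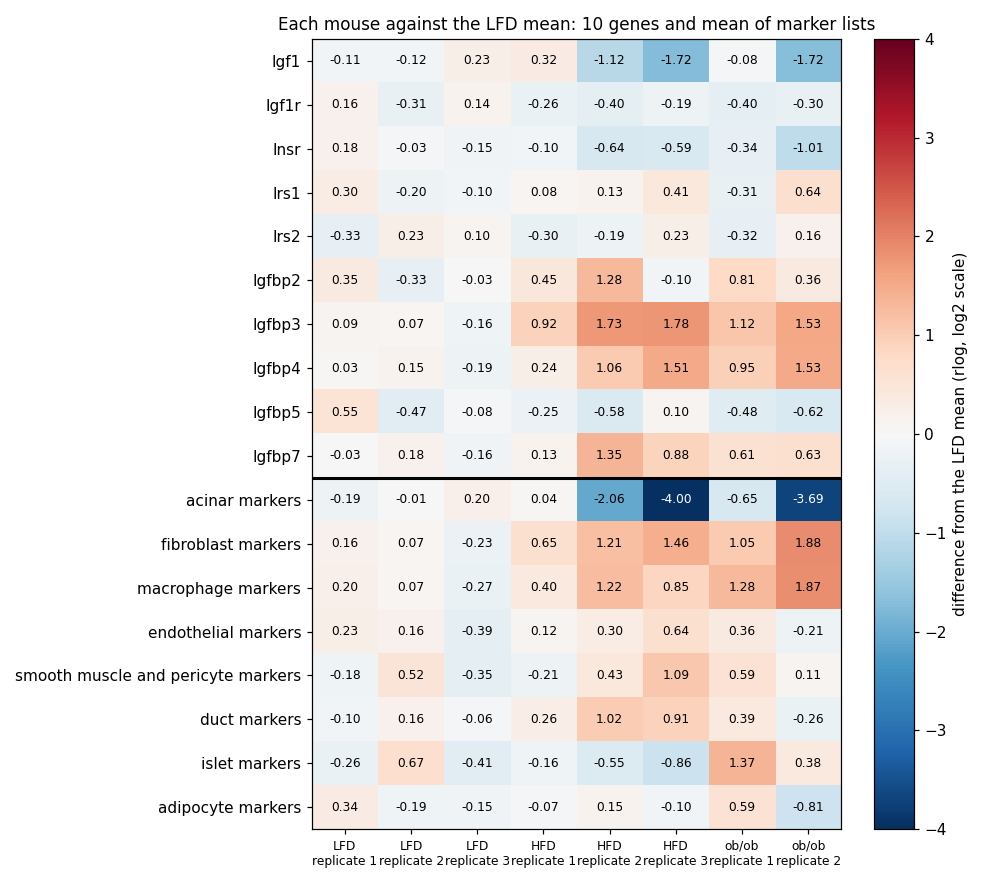
The difference of each mouse from the LFD mean on the rlog (log2) scale, for the 10 genes above the line and for the mean of 8 marker lists below it. Colors run from -4 to 4. Igf1 is low in the 3 mice with few acinar transcripts, whereas Igfbp3 is 0.92 to 1.78 above the LFD mean in all 5 obese mice.

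The insulin receptor gene Insr (chromosome 8, 3122061 to 3279617, minus strand) was at 10.39, 10.18 and 10.06 in the LFD mice, at 10.11, 9.57 and 9.61 in the HFD mice and at 9.87 and 9.20 in the ob/ob mice. HFD replicate 1 was within the LFD range and the other 4 obese mice were below it. The difference was -0.44 (standard error 0.23) for HFD against LFD, -0.68 (standard error 0.26) for ob/ob against LFD and -0.56 (95% interval -1.03 to -0.09) for obese against LFD, with adjusted p-values of 0.307, 0.237 and 0.153 with limma. It was -0.24 with the acinar covariate (adjusted p = 0.672) and 0.19 with the fibroblast covariate (adjusted p = 0.848). Without HFD replicate 1 it was -0.65, with an adjusted p-value of 0.0402.

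Igf1r (chromosome 7, 67952827 to 68233668, plus strand) was at 9.33, 8.86 and 9.31 in the LFD mice, at 8.91, 8.77 and 8.98 in the HFD mice and at 8.76 and 8.87 in the ob/ob mice. LFD replicate 2 lay among the obese mice, so that the groups overlapped. The difference between obese and LFD was -0.32 (95% interval -0.68 to 0.04, adjusted p = 0.238) and -0.37 with the acinar covariate. The value of Igf1r minus that of Insr within a mouse was -1.04 ± 0.28 (SD, n = 3) in LFD and -0.81 ± 0.35 (SD, n = 5) in the obese mice. The difference of 0.22 had p = 0.393 in a two-sided exact permutation test (adjusted p = 0.393 over the 2 within-mouse differences computed).

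The adaptors Irs1 and Irs2, which share their signalling role and differ in tissue use, varied between mice more than between groups. Irs1 (chromosome 1, 82233101 to 82291416, minus strand) was at 7.49, 6.99 and 7.08 in the LFD mice, at 7.27, 7.32 and 7.60 in the HFD mice and at 6.88 and 7.83 in the ob/ob mice. The ob/ob mice held both the lowest and the highest value. The difference between obese and LFD was 0.19 (95% interval -0.38 to 0.76, adjusted p = 0.655) and -0.17 with the acinar covariate. Irs2 (chromosome 8, 10984681 to 11008458, minus strand) was at 6.66, 7.22 and 7.09 in the LFD mice, at 6.69, 6.80 and 7.22 in the HFD mice and at 6.67 and 7.15 in the ob/ob mice. The groups covered the same range, and the difference between obese and LFD was -0.08 (95% interval -0.61 to 0.44, adjusted p = 0.839), -0.36 with the acinar covariate and -0.65 with the fibroblast covariate. Irs2 minus Irs1 within a mouse was -0.20 ± 0.56 (SD, n = 3) in LFD and -0.47 ± 0.18 (SD, n = 5) in the obese mice (two-sided exact permutation test, p = 0.357, adjusted p = 0.393, where 0.0357 is the smallest p that 5 mice against 3 allow).

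Between the genetic and the dietary model, the differences of the 10 genes were small. They ran from -0.31 for Igfbp5 to 0.30 for Igfbp4 in ob/ob against HFD, each with an adjusted p-value of 1.00 with limma. The intervals were wide, so that similar expression is not shown: they went from -0.79 to 0.49 for Igfbp3, from -0.50 to 1.11 for Igfbp4 and from -1.45 to 1.33 for Igf1. As both comparisons with LFD use the same 3 lean mice, their values are given side by side and their likeness was not taken as a result.

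**Figure D3:**
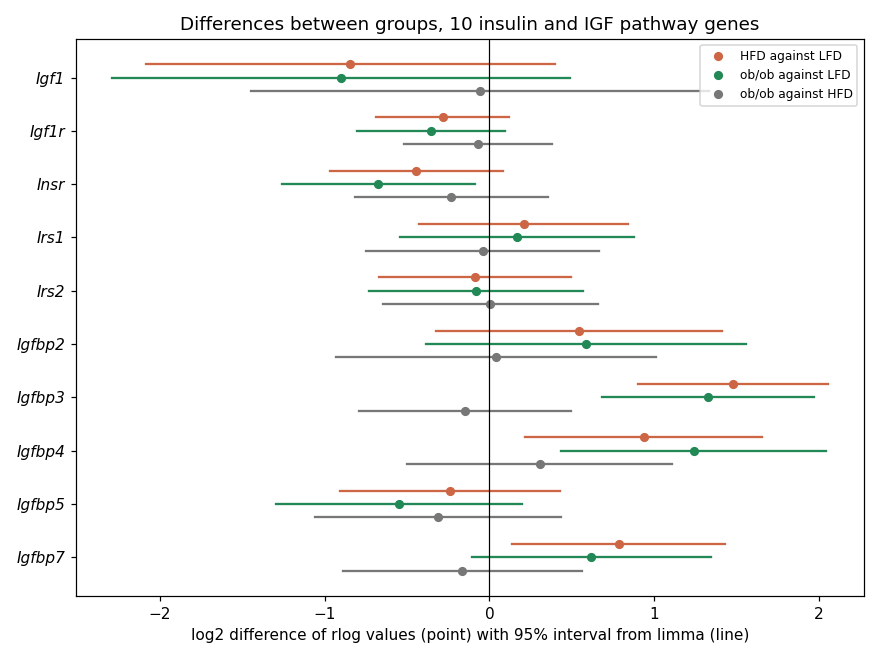
The log2 difference of rlog values (points) with the 95% interval of limma (lines) for the 10 genes in 3 comparisons. The intervals of Igfbp3 and Igfbp4 lie above 0 against LFD in both obese groups, before adjustment over all genes, and all intervals of ob/ob against HFD cross 0.

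Across the 8 mice, the genes whose rlog values followed 9 of the 10 most closely were found by Pearson r, as a description in which mice, libraries and tissue composition are shared. For Igf1 they were Nab1, Serpini2 and Azgp1 (r = 0.996, 0.996 and 0.994). Insr was closest to Ptprf, Plxna2 and Cmtm4 (r = 0.997, 0.993 and 0.988). For Igfbp3 they were Tmem154, 1700012D01Rik and Nemp1 (r = 0.993, 0.989 and 0.989), for Igfbp4 Spag5, Hif1a and Nuf2 (r = 0.996, 0.994 and 0.993), and for Igfbp7 F2rl1, Ier3 and Mex3d (r = 0.988, 0.986 and 0.980). Igf1r followed Nt5dc3, Stk35 and Tmppe (r = 0.959, 0.951 and 0.951), and Irs2 followed Rab3c, Got1 and Zcrb1 (r = 0.988, 0.969 and 0.957). The closest to Igfbp2 were Mgst1, Rnf113a2 and Fbxo6 (r = 0.931, 0.922 and 0.904), and to Igfbp5 Olfr509, Dot1l and Gpatch2 (r = 0.968, 0.950 and 0.941). Among the 10 genes themselves, Igfbp3 and Igfbp4 had the highest r (0.928) and Igf1 and Igfbp4 the lowest (-0.895).

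Other genes of the axis were taken from lists of its parts, with 72 of 75 listed genes measured (Igfbp1, Igfbpl1 and Socs1 were not among the values). Of these, 6 were higher and 10 lower in obese than in LFD mice with an unadjusted p-value under 0.05 (8.33% and 13.9% of the 72, beside 14.5% and 10.9% of all genes), and 0 had an adjusted p-value under 0.05. With the acinar covariate 3 of these 16 kept an unadjusted p-value under 0.05 and all 16 their sign. With the fibroblast covariate none of the 16 kept both. Stc2 (1.60) and Klf15 (2.21) had an unadjusted p-value under 0.05 with the sign turned, and Ide (-0.48) and Akt1 (-0.21) kept the sign without such a p-value.

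Among the other ligands and receptors, the islet hormones Ins1 and Ins2 had their highest values in ob/ob. Ins1 was at 11.32, 12.26 and 11.16 in the LFD mice, at 11.51, 11.06 and 10.85 in the HFD mice and at 13.19 and 12.44 in the ob/ob mice. Both ob/ob mice were above all other mice, replicate 2 narrowly so beside LFD replicate 2. For Ins2 these mice were at 12.42 and 12.32. The difference of Ins1 was 1.24 for ob/ob against LFD and -0.44 for HFD against LFD, and that of Ins2 was 1.27 and -0.34. The adjusted p-values for ob/ob against LFD were 0.208 and 0.227 with limma. The 8 islet markers include both hormones, and their mean was 9.83 to 10.81 in ob/ob, 8.59 to 9.29 in HFD and 9.04 to 10.11 in LFD. Of the 8, 6 were higher in ob/ob than in LFD, and Gcg (-0.35) and Sst (-0.90) were lower. Igf2, the fetal growth factor, was low in all groups, with means of 3.36 (SD 0.32) for LFD, 2.81 (SD 0.34) for HFD and 3.67 (SD 0.21) for ob/ob. Igf2r, which clears IGF-2, differed by -0.14 between obese and LFD, and Insrr, an orphan relative of the insulin receptor, by 0.21.

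Of 7 measured genes for other binding proteins and for release of IGFs, 1 was higher and 3 lower in obese against LFD (unadjusted p-value under 0.05). Of all genes, 14.5% were higher and 10.9% lower by this measure. Igfals, which encodes the subunit that holds IGF-1 and IGFBP3 in a circulating complex, was at 6.58, 7.01 and 7.10 in the LFD mice, at 5.93, 5.45 and 4.30 in the HFD mice and at 6.20 and 4.72 in the ob/ob mice. No obese mouse reached the lowest LFD mouse, with a difference of -1.55 (standard error 0.45, adjusted p = 0.117) that was -0.64 with the acinar covariate and 0.66 with the fibroblast covariate. Stc2, an inhibitor of the protease PAPP-A, differed by -1.48 and Igfbp6, a binding protein that prefers IGF-2, by -0.80, whereas Stc1, a related inhibitor, differed by 1.09. Pappa, the protease that cleaves IGFBP4, differed by 0.09 (adjusted p = 0.869), and Htra1, a secreted protease, by 0.79 (adjusted p = 0.268). Pappa2, which cleaves IGFBP3 and IGFBP5, was at 8.11 and 7.45 in ob/ob and at 5.22 to 6.52 in the other 6 mice, a difference of 1.76 for ob/ob against LFD and of -0.12 for HFD against LFD.

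Among 13 measured adaptors and inhibitors of the receptors, 2 were higher and 2 lower by the same measure, beside 14.5% and 10.9% of all genes. Ide, which encodes the insulin-degrading enzyme, was at 10.97, 10.71 and 10.94 in the LFD mice, at 10.09, 9.96 and 10.05 in the HFD mice and at 10.29 and 9.92 in the ob/ob mice. The lean and obese mice did not overlap, and HFD replicate 1 lay below ob/ob replicate 1 and above the 3 acinar-poor mice. The difference of Ide was -0.80 (standard error 0.15, adjusted p = 0.085 with limma), -0.70 with the acinar covariate and -0.48 with the fibroblast covariate. The phosphatase gene Ptprf differed by -0.49. The adaptor gene Sh2b2 was higher by 1.32 (adjusted p = 0.113), without overlap between lean and obese mice. Its difference was 0.67 with the acinar covariate and -0.23 with the fibroblast covariate. Socs3, an inhibitor of cytokine and insulin signalling, was higher by 0.83. Grb10 differed by -0.36, Gab1 by -0.28 and Ptpn1, the phosphatase that acts on the insulin receptor, by 0.48.

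Of 26 PI3K, AKT and mTOR genes, 1 was higher and 4 lower in obese than in LFD mice (unadjusted p-value under 0.05). Over all genes the shares were 14.5% and 10.9%. The median difference of the 26 genes was -0.12. Akt1 was at 11.28, 11.14 and 11.50 in the LFD mice, at 10.76, 10.53 and 10.37 in the HFD mice and at 10.76 and 10.61 in the ob/ob mice. All 5 obese mice lay below all LFD mice, HFD replicate 1 included, with a difference of -0.69 (standard error 0.16, adjusted p = 0.107), of -0.51 with the acinar covariate and of -0.21 with the fibroblast covariate. The others were Eif4ebp1 (-0.95), a brake on translation that mTOR releases, the kinase Rps6kb1 (-0.80) and Akt2 (-0.54), for which lean and obese mice did not overlap either. In this order they were at -0.35, -0.32 and -0.22 with the acinar covariate. With the fibroblast covariate they were at 0.52, 0.42 and 0.20. All obese mice lay below all LFD mice for 9.05% of all genes. Pik3r3, a regulatory subunit of PI3K, differed by 0.69, Pik3cd by 0.47 and Trib3, an AKT inhibitor, by 0.43.

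Of 15 FOXO factors and genes that FOXO induces, 1 was higher and 1 lower by the same measure (14.5% and 10.9% of all genes). Klf15 was at 9.78, 9.98 and 10.27 in the LFD mice, at 9.59, 7.82 and 6.27 in the HFD mice and at 9.29 and 6.58 in the ob/ob mice, so that the 3 acinar-poor mice were lowest. The difference was -2.10 (standard error 0.78, adjusted p = 0.153), -0.32 with the acinar covariate and 2.21 with the fibroblast covariate. Ccng2, a cyclin linked to cell cycle arrest, was higher by 1.18 (adjusted p = 0.128) and without overlap. Its difference was 0.43 with the acinar covariate and -0.53 with the fibroblast covariate. Gadd45a differed by 1.04, Sesn3 by 0.70, Pdk4 by -0.73 and Cited2 by -0.51. Foxo1 differed by -0.16, Foxo3 by -0.10 and Foxo4 by -0.27, with adjusted p-values of 0.658, 0.723 and 0.399. In the growth hormone list, 1 of 6 genes, Jak2 (0.59), was higher with an unadjusted p-value under 0.05 (14.5% of all genes). Socs2, a target of STAT5, differed by 0.61, the receptor gene Ghr by -0.48, Cish by -0.27 and Stat5b by -0.23.

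**Figure D4:**
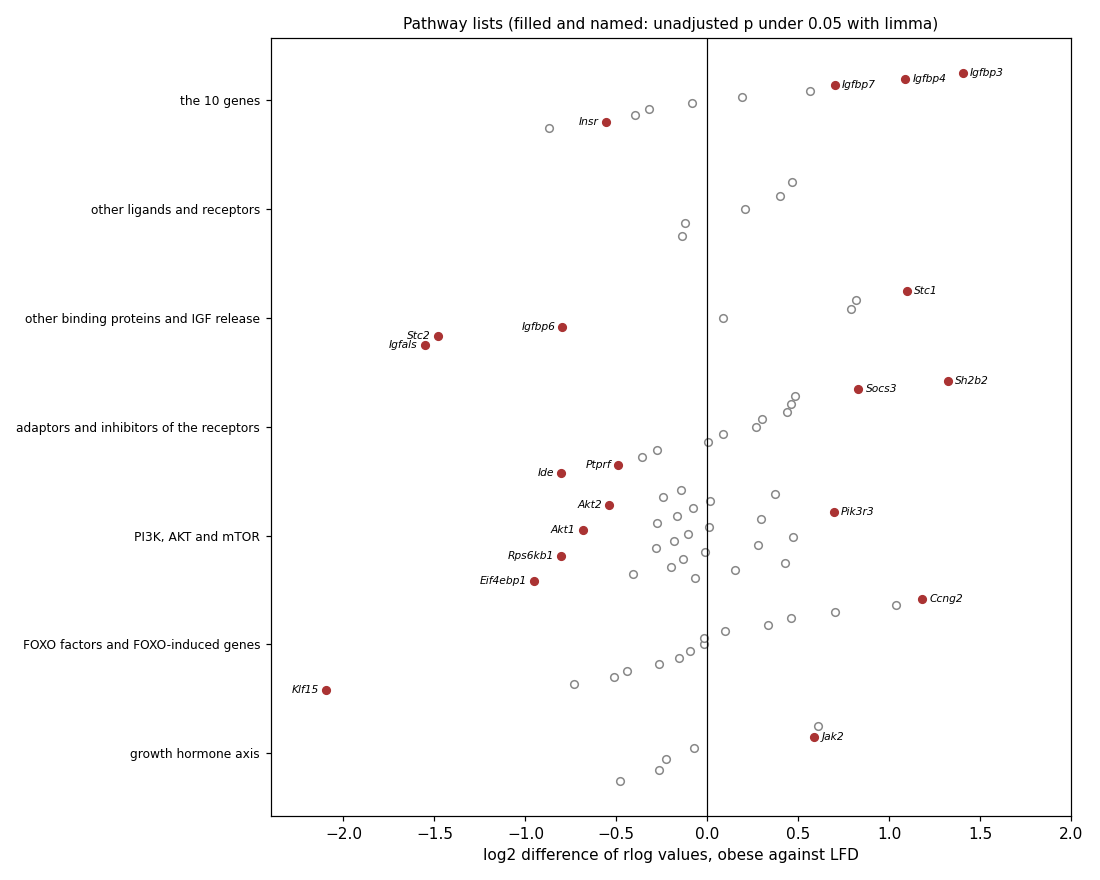
The log2 difference of rlog values between obese and LFD mice for every measured gene of 7 lists, the first being the 10 genes described. Filled points with a name had an unadjusted p-value under 0.05 with limma (4 of the 10 genes and 16 of 72 others), and the height within a list only separates the points.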

How the data were processed

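Paired-end RNA-Seq was done on the pancreas of 8 mice, which the study describes as bearing mT organoids. Per the labels and the study, the authors quantified transcripts with Salmon 0.11.3 on Gencode M18 (GRCm38.p6), summed them to genes and deposited log2 values from rlog of DESeq2 1.22.2 for 15047 symbols. The filter behind these symbols, and whether rlog knew the groups, are not given in the sources used here. Depth is unknown, so error is given as spread between mice, and Salmon splits reads of overlapping or related genes by probability. Groups and replicate numbers came from the sample titles.

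The log2 values were fitted for all genes with limma 3.58.1 in R 4.3.3 (group means, empirical Bayes with a trend), with Benjamini-Hochberg adjustment over all genes. Within-mouse differences were tested by exact permutation with SciPy 1.17.1. The fit was tested on simulated data. The 10 genes and all lists were chosen with earlier results of these data known. Named were the 10, Ins1, Ins2 and Igf2, the 3 largest differences each way per list, the 3 most correlated genes (those of Irs1 are not reported here), and, chosen after their values were seen, Foxo1, Foxo3, Foxo4, Lep, Cnn1, Pappa, Gab1 and Akt2. Coordinates and lengths are from Gencode M21, promoters from RefSeq, both on GRCm38. The alternatives were no trend, only the groups compared, a mean rlog value of at least 5, median centring, quantile normalization, array weights, a replicate block, an acinar covariate, each mouse left out, and a fibroblast covariate added after the data were seen. Same-numbered mice are different animals.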

Additional observations from a re-analysis of the deposited data

How the results depend on the processing

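The differences of Igfbp3 between obese and LFD stayed between 1.01 and 1.54 in 15 of 16 settings, with adjusted p-values from 0.00540 to 0.361, and was 0.38 (adjusted p = 0.610) in the other, the fibroblast covariate. Leaving out each mouse moved the number of the 10 genes with an unadjusted p-value under 0.05 between 1 and 5 (HFD against LFD), 1 and 4 (ob/ob against LFD), 0 and 1 (ob/ob against HFD) and 2 and 5 (obese against LFD), and the number with an adjusted p-value under 0.05 between 0 and 3, 0 and 1, and 0 and 4 in the comparisons with LFD. The highest adjusted counts came without HFD replicate 1. The share of all genes called in each leave-out fit was not computed, so a change in these counts may not be particular to the 10 genes. The lowest unadjusted counts came without LFD replicate 3 or HFD replicate 2 (1, HFD), without ob/ob replicate 2 (1, ob/ob) and without LFD replicate 1 (2, obese). With array weights, where HFD replicate 2 had a weight of 9.36 and HFD replicate 1 of 0.273, the unadjusted count was 7 (HFD against LFD) and 1 (ob/ob against HFD), and the adjusted count 6 for HFD (Igf1, Insr, Igfbp2, Igfbp3, Igfbp4, Igfbp7) and 5 for obese against LFD (the same genes without Igfbp2). How many of all genes were called with array weights or the replicate block was not counted, so these counts do not set the 10 genes apart. The unadjusted obese count was 2 with the acinar and 1 with the fibroblast covariate, beside 1610 and 1939 of 15047 genes. With the replicate block it was 5, beside 4 and 3 in the HFD and ob/ob comparisons with LFD and 0 between the obese groups, and no adjusted call. Deviations of same-numbered mice correlated between -0.281 and 0.592, which does not pair them.

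Signs turned as follows, and the cause was not tested. With the acinar covariate Igf1 was at 0.20, 0.23 and 0.21 and Irs1 at -0.13, -0.20 and -0.17 for HFD, ob/ob and obese against LFD, and Igf1 at 0.026 and Irs2 at -0.016 for ob/ob against HFD. With the fibroblast covariate Igf1 was at 1.84, Insr at 0.19, Irs1 at -0.76, Igfbp4 at -0.30 and Igfbp7 at -0.042. With the replicate block Irs2 was at 0.024 (ob/ob against LFD) and Igfbp2 at -0.13 (ob/ob against HFD). In ob/ob against HFD, array weights gave 0.22 for Igf1, 0.029 for Igf1r, 0.019 for Irs1 and -0.60 for Igfbp2, and median centring -0.0022 for Irs2. On leaving out mice, Irs2 went from -0.25 to 0.027 and Igfbp5 from -0.48 to 0.035 (HFD against LFD), Irs1 from -0.31 to 0.64 and Irs2 from -0.32 to 0.16 (ob/ob against LFD), and Irs1 from -0.049 to 0.42 and Irs2 from -0.25 to 0.036 (obese against LFD). In ob/ob against HFD the ranges were -0.87 to 0.76 for Igf1, -0.57 to 0.10 for Insr, -0.51 to 0.43 for Irs1, -0.24 to 0.25 for Irs2, -0.28 to 0.41 for Igfbp2, -0.43 to 0.057 for Igfbp3, -0.044 to 0.59 for Igfbp4 and -0.49 to 0.11 for Igfbp7. The 2 within-mouse differences changed neither sign nor call.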
